A study of Mus musculus with 281 samples.

Results

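Hoxa5, Hoxa7, Hoxa9, Hoxa10, Meis1 and Hlf, transcription factor genes known for their part in blood stem cells and early progenitors, were followed through 6 labelled groups of single mouse bone marrow cells. The genes were taken by symbol as a named set, with earlier results of these data known. All 6 were found among the 43280 symbols of the expression table. The table covered 281 cells of C57BL/6 mice, an inbred laboratory strain, each read by SMART-seq2, which sequences cDNA along the whole transcript. The labels followed the gates: 47 cells were CMP, 45 Ly6C-GMP, 22 proneu, 31 preNeu and 31 tpMo, and the remaining cells, the largest set, were Ly6C+GMP. CMP cells were sorted as Lin-Ckit+Sca-1-CD34+CD16/32lo. Both GMP labels took CD16/32hi cells within the same gate and were split by Ly6C, a surface marker carried by monocytes. The gate listed for 21 proneu cells was that of Ly6C+GMP, the remaining proneu cell had none listed, and how the proneu label was assigned is not stated. PreNeu cells were sorted as Lin-Gr1+CD11b+CD115-SiglecF-ckit+CXCR4+ and tpMo cells as Lin-CD115+ckit-CXCR4+Ly6C+. No animal or culture was named for any cell. Each label therefore counts as 1 sample, no test was made, each SD is taken over the cells of a label, and no difference has a replicate check.

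Hox genes lie in chromosomal clusters and encode homeodomain proteins, and those of the A cluster are prominent in blood stem cells and myeloid progenitors. Hox proteins bind DNA together with homeodomain partners of the TALE class, among them Meis1. Hlf encodes a bZIP protein of the PAR family and is a selective transcription factor gene of mouse haematopoietic stem cells. Hoxa9 and Meis1 are normally turned down as myeloid cells mature, and both stay on in leukaemias with MLL fusion proteins.

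A value is given in TPM, the abundance of a gene per transcript length relative to the cell's total, so levels of different genes can be set side by side. A gene counted as detected where a cell had 1 TPM or above. The median number of genes detected per cell was 3489 for CMP, 4514 for Ly6C-GMP, 4829 for Ly6C+GMP, 4204 for proneu, 2373 for preNeu and 3082 for tpMo. Cells were sorted by sample title into 4 sets, called title runs H, A, B and C here. Only run H stands apart by its titles, which have their own prefix. The titles of runs A, B and C are numbered consecutively, and the borders between these runs were placed where the labels change. What the title numbers mean is not stated. Runs B and H each held CMP and Ly6C-GMP cells, run A held 95 Ly6C+GMP cells, and run C held 10 Ly6C+GMP, 21 proneu and all preNeu and tpMo cells. Kit, the gene of the c-Kit used in the gates, was detected in 37 of 47 CMP, 40 of 45 Ly6C-GMP, 87 Ly6C+GMP and 17 of 22 proneu cells, but in 6 of 31 of the c-Kit-gated preNeu cells and 0 of 31 tpMo cells. Ly6c2, which encodes Ly6C, was detected in 43 of 45 cells sorted as Ly6C-negative GMP. Neutrophil granule and regulator transcripts (14 genes) summed to a median of 316901 TPM in preNeu cells and 2295 TPM in tpMo cells, and 10 monocyte genes summed to a median of 3.92 TPM in preNeu cells and 5622 TPM in tpMo cells.

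All 4 Hoxa genes lie on the minus strand of chromosome 6 within the Hox A cluster, by the GENCODE M21 annotation of GRCm38. Hoxa5 spans chr6:52201754-52204587, Hoxa7 chr6:52214491-52221854, Hoxa9 chr6:52223100-52231089 and Hoxa10 chr6:52231197-52240854. Meis1 lies at chr11:18879817-19018985 and Hlf at chr11:90336536-90390895, also on the minus strand. Promoters were read 250 bases back from the RefSeq start site on GRCm38.p6 and are shown for 3 genes with unlike patterns across the gates. Hoxa9 had its highest detection in Ly6C-GMP cells and Hlf in proneu cells, while Meis1 had a stepwise lower share from CMP to preNeu. Capitals in the Hlf promoter mark a cAMP response element, TGACGTCA, the only match to a searched motif in the 3 windows.
Hoxa9, chr6:52227371-52227620, minus strand: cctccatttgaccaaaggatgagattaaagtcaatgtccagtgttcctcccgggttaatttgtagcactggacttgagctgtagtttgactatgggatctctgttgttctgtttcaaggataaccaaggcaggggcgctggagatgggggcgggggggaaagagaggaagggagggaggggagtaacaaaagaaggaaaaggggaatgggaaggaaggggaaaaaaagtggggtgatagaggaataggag
Meis1, chr11:19018970-19019219, minus strand: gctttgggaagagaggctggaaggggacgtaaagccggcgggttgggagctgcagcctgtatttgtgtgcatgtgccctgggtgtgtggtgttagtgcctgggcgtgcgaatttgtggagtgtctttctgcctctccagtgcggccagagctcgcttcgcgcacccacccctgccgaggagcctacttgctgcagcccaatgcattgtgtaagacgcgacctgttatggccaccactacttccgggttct
Hlf, chr11:90390918-90391167, minus strand: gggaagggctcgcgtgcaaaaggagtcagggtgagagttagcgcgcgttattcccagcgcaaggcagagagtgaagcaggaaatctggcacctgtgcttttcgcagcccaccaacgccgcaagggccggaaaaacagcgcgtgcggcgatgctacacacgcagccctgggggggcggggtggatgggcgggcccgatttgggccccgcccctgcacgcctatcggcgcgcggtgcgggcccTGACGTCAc
The windows differed in base composition. The Hoxa9 window had 49.6% G and C with 3 CpG dinucleotides, Meis1 had 59.6% with 13, and Hlf had 67.2% with 26. Over all 32851 RefSeq promoters the medians were 52.4% and 6 CpG. The Hoxa9 window lies inside the longer GENCODE gene but in none of its exons, and the last 16 bases of the Meis1 window lie in an annotated exon. The motifs searched on both strands were TGACAG (MEIS and PKNOX proteins), TGATTNAT (HOX9 or HOX10 with a TALE partner), TTANGTAA (HLF and its relatives) and TGACGTCA, which was added after the Hlf sequence had been read. They were present in 15.9%, 2.82%, 2.06% and 1.55% of all promoters over the same 250 bases. The first 3 had no match in the windows of any of the 6 genes, and TGACGTCA matched in Hlf alone, from 9 bases before the RefSeq start site. The GENCODE gene of Hlf begins downstream of that site, at 90390895, so the distance depends on the annotation used.

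At least 1 of the 6 genes was detected in most cells of the first gates and in few cells of the last ones. These were 36 of 47 CMP cells (76.6%, exact 95% interval 62 to 87.7%), 35 of 45 Ly6C-GMP cells (77.8%, 62.9 to 88.8%), 37 Ly6C+GMP cells (35.2%, 26.2 to 45.2%) and 10 of 22 proneu cells (45.5%, 24.4 to 67.8%). Both preNeu and tpMo had 2 of 31 such cells (6.45%, 0.791 to 21.4%). These intervals cover counting error between cells only. The intervals of CMP and Ly6C-GMP overlap, as do those of Ly6C+GMP and proneu, while CMP and Ly6C-GMP lie above Ly6C+GMP, and all 4 lie above preNeu and tpMo. The wide proneu interval also reaches those of CMP and Ly6C-GMP. Ly6C-GMP cells of run B had 26 of 30, and those of run H had 9 of 15. A cell of the CMP label held up to 3 of the 6 genes, a Ly6C-GMP cell up to 4, a Ly6C+GMP cell up to 3, and no proneu, preNeu or tpMo cell more than 1. The number of the 6 genes in a cell had a Spearman's rho with the number of all genes detected in it, over the cells of a label, of 0.06 for CMP, -0.02 for Ly6C-GMP, 0.14 for Ly6C+GMP, 0.12 for proneu, 0.37 for preNeu and 0.12 for tpMo. Fewer genes were detected per cell in preNeu and tpMo than in the other labels, and the part of this in the low shares there was not tested.

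**Figure D1:**
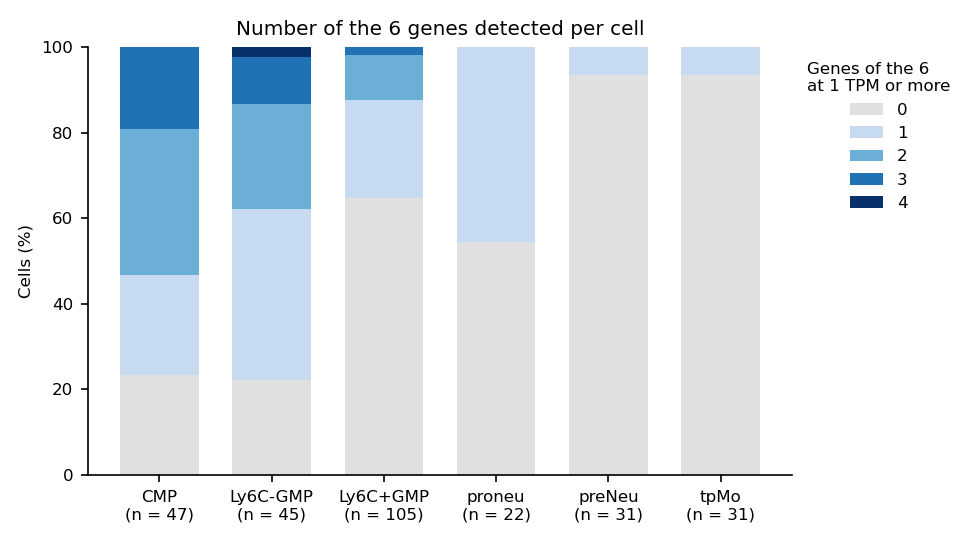
Share of cells (percent, y axis) with 0 to 4 of the 6 genes at 1 TPM or more, for each label along the x axis with its number of cells. Cells with none make up 11 of 47 in CMP and 10 of 45 in Ly6C-GMP, against 29 of 31 in both preNeu and tpMo.

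Meis1, the TALE partner of the Hox proteins, was the most widely detected of the 6 genes and had the highest levels, most of them in CMP cells. It ran from 0 to 1176 TPM in CMP cells with a median of 36.9 TPM, from 0 to 674 TPM in Ly6C-GMP cells with a median of 0.64 TPM, and from 0 to 316 TPM in Ly6C+GMP cells with a median of 0. It was listed at 0.94 TPM or less in all 31 preNeu cells, while 1 proneu cell had 131 TPM and 1 tpMo cell had 144 TPM. Fewer cells had it at each step along the gates to preNeu: 32 of 47 CMP cells (68.1%, 52.9 to 80.9%), 20 of 45 Ly6C-GMP cells (44.4%, 29.6 to 60%), 17 Ly6C+GMP cells (16.2%, 9.72 to 24.7%), 1 of 22 proneu cells (4.55%, 0.115 to 22.8%), 0 of 31 preNeu cells (upper limit 11.2%) and 2 of 31 tpMo cells (6.45%, 0.791 to 21.4%). The intervals of neighbouring labels overlap except between Ly6C-GMP and Ly6C+GMP.

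The level of Meis1 differed more between the first gates than its detection. Ly6C-GMP cells had a mean of 32.8 ± 108 TPM and CMP cells one of 203 ± 288 TPM (SD over 45 and 47 cells), and the Ly6C-GMP mean was 18.2 TPM without its highest cell. On the scale of mean log2(TPM + 1), which understates differences of low genes, the difference of Ly6C-GMP from CMP cells was -2.64. Title runs B and H, which hold these labels, gave -2.55 and -2.81. The median over cells with Meis1 was 19.96 TPM for Ly6C-GMP and 142 TPM for CMP. The Ly6C+GMP mean of 9.77 ± 39.7 TPM lay below that of Ly6C-GMP cells, by a log2 difference of -1.31. Levels of 100 TPM or more were found in 20 CMP cells, 3 Ly6C-GMP cells, 3 Ly6C+GMP cells, 1 proneu cell and 1 tpMo cell. Of the exon bases of Meis1, 8.51% are shared with the antisense gene Gm16140, detected in 9 cells of the series, and reads of that stretch cannot be assigned without strand.

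**Figure D2:**
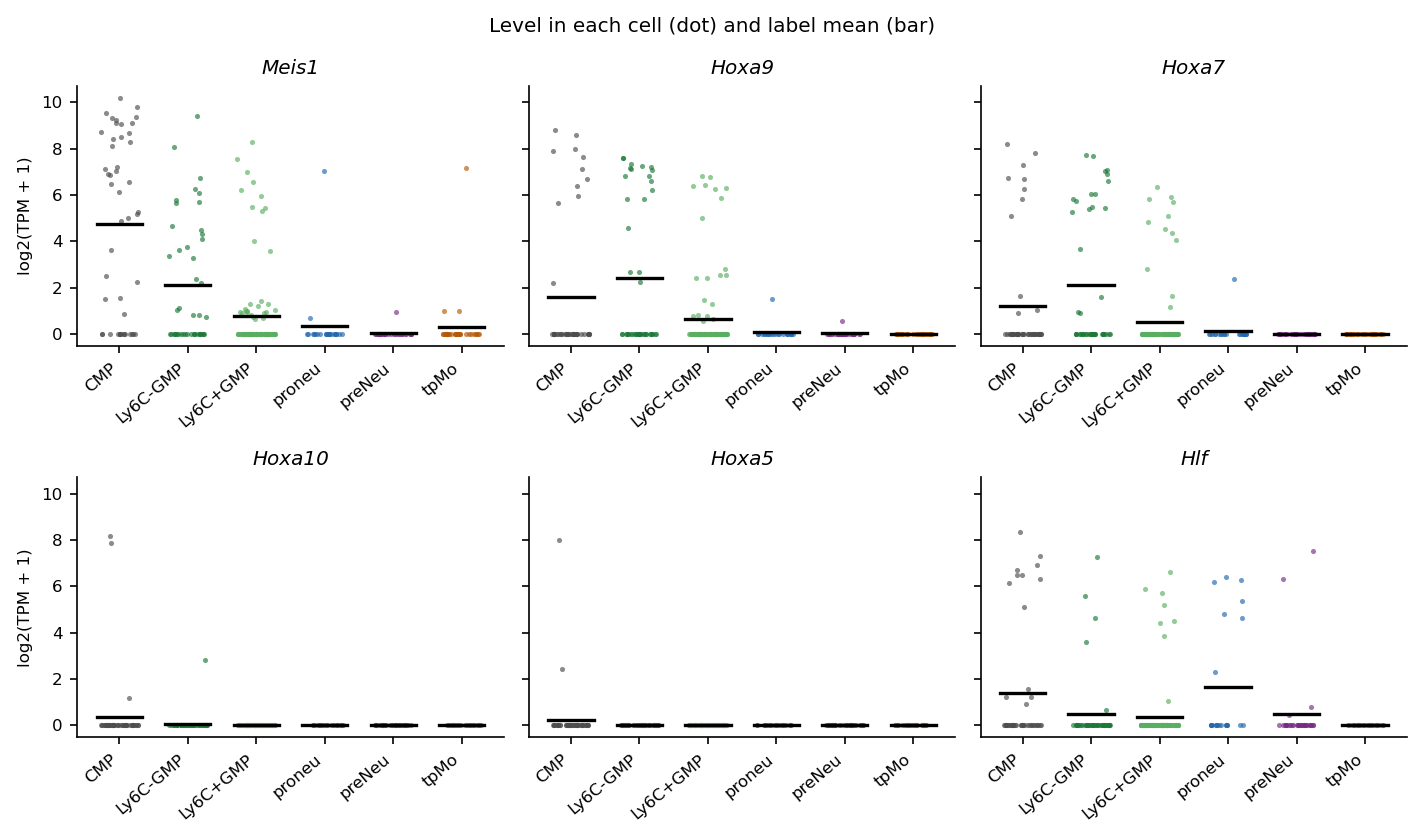
Level of each gene in every cell (dots), as log2(TPM + 1) on the y axis, by label on the x axis, with the mean over the label's cells as a bar. Meis1 dots in CMP reach 1176 TPM and spread over the whole range, those of Hoxa9 and Hoxa7 thin out after Ly6C-GMP, and Hlf has dots in all labels but tpMo, with 7 of 22 cells in proneu.

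Hoxa9, the Hox A gene most tied to myeloid progenitors and their leukaemias, did not follow Meis1: its share of cells was highest in the Ly6C-GMP label. It was detected in 11 of 47 CMP cells (23.4%, 12.3 to 38.03%), 18 of 45 Ly6C-GMP cells (40%, 25.7 to 55.7%) and 15 Ly6C+GMP cells (14.3%, 8.22 to 22.5%). The CMP interval overlaps both others, and those of Ly6C-GMP and Ly6C+GMP do not overlap. Beyond them it was detected in 1 of 22 proneu cells, at 1.85 TPM, and in 0 of 31 preNeu and 0 of 31 tpMo cells (upper limit 11.2% each), with 1 preNeu cell at 0.47 TPM.

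Levels ran from 0 to 195 TPM in Ly6C-GMP cells and from 0 to 453 TPM in CMP cells, with a median of 0 in each label. Ly6C-GMP cells averaged 40.1 ± 63.5 TPM and CMP cells 41.96 ± 101.8 TPM. More cells had Hoxa9 in Ly6C-GMP, at a median of 113 TPM among them against 139 TPM among the CMP cells that had it, and the means were close. On the log2 scale Ly6C-GMP cells lay 0.82 above CMP cells, by 1.17 within run B (13 of 30 against 7 of 31 cells) and by 0.12 within run H (5 of 15 against 4 of 16 cells). Ly6C+GMP cells had a mean of 6.29 ± 21.98 TPM and a highest value of 113 TPM, a log2 difference of -1.76 from Ly6C-GMP cells. All 15 Ly6C+GMP cells with Hoxa9 were among the 95 of run A, and 0 of the 10 in run C had it (upper limit 30.8%). No title run holds both Ly6C+GMP and Ly6C-GMP cells, which follows from setting the run borders where labels change. Differences between these labels therefore have no check within a run. Whether a batch separates them is not known, and it could not be told apart from the label.

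Hoxa7, the next Hox A gene downstream of Hoxa9 in the cluster, had a profile close to that of Hoxa9 over the labels. It was detected in 10 of 47 CMP cells (21.3%, 10.7 to 35.7%), 16 of 45 Ly6C-GMP cells (35.6%, 21.9 to 51.2%), 12 Ly6C+GMP cells (11.4%, 6.05 to 19.1%) and 1 of 22 proneu cells, at 4.10 TPM. All preNeu and tpMo cells were listed at 0. Ly6C-GMP cells averaged 29.2 ± 53.7 TPM and CMP cells 22.3 ± 60.4 TPM, a log2 difference of 0.90 whose sign was opposite in the title runs. In run B it was 1.73, with 12 of 30 Ly6C-GMP and 4 of 31 CMP cells, and in run H it was -0.74, with 4 of 15 and 6 of 16 cells. The 5 CMP cells with the highest Hoxa7, at 103.3 to 292 TPM, were all in run H. The order of Ly6C-GMP and CMP in Hoxa7 therefore did not hold within runs. Ly6C+GMP cells averaged 3.56 ± 12.9 TPM, a log2 difference of -1.62 from Ly6C-GMP cells. Of the exon bases of Hoxa7, 20.4% are shared with the antisense gene Hoxaas3, detected in 8 cells of the series, and reads of the pair cannot be told apart with a kit that does not mark strand.

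**Figure D3:**
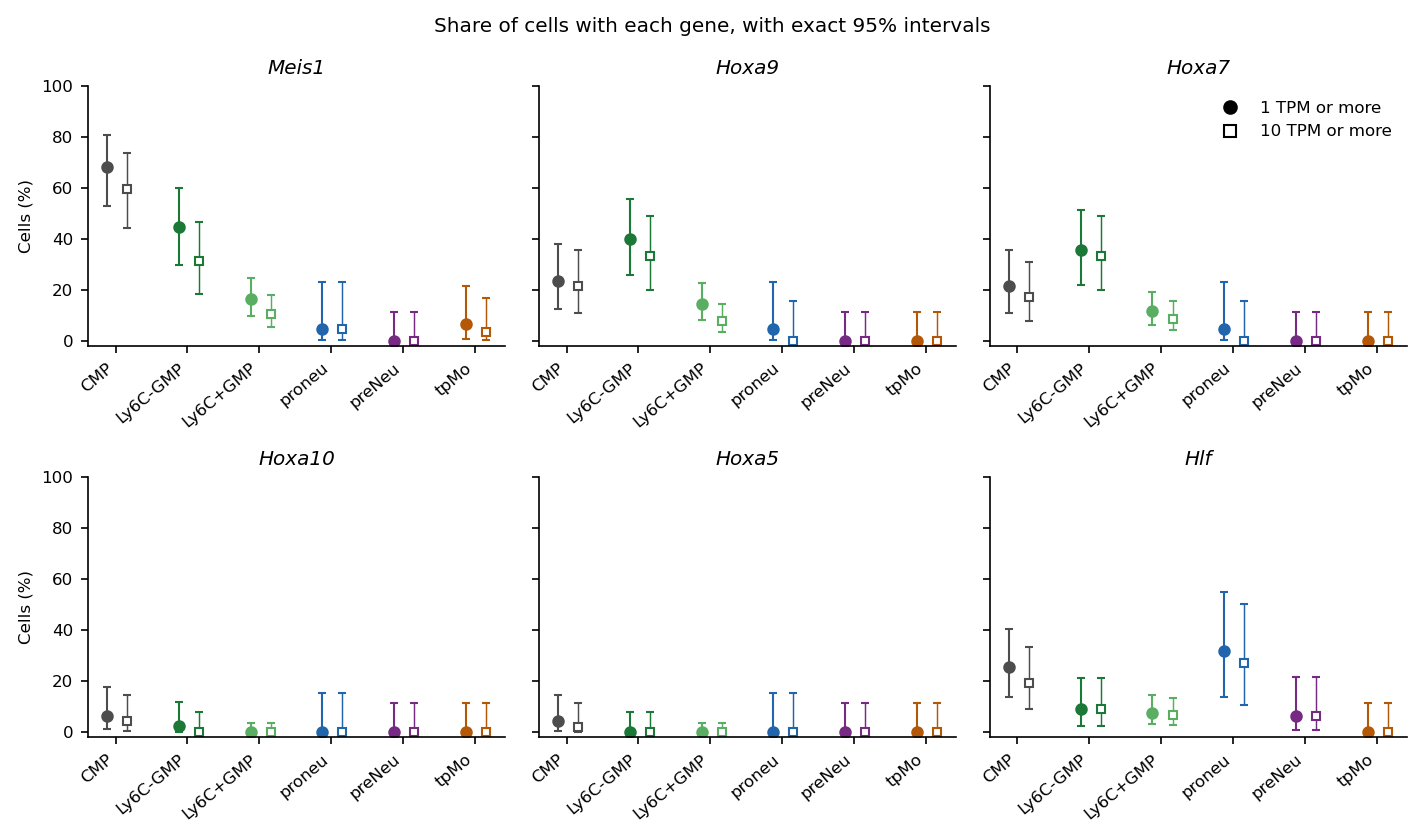
Share of cells (percent, y axis) with each gene at 1 TPM or more (filled) and at 10 TPM or more (open squares) by label, with exact 95% intervals. Meis1 steps down from 68.1% in CMP, Hoxa9 and Hoxa7 are highest in Ly6C-GMP with 40% and 35.6%, and Hlf is highest in proneu with 31.8%.

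Hoxa5 and Hoxa10, the outer A cluster genes of the set, were nearly absent from the cells. Hoxa5 was detected in 2 of 47 CMP cells, at 259 and 4.43 TPM. Hoxa10 was detected in 3 CMP cells, at 290.5, 234 and 1.30 TPM, and in 1 Ly6C-GMP cell, at 6.02 TPM. No cell of the other labels had either gene. The high values are single cells: without its highest cell the CMP mean of Hoxa5 was 0.0963 TPM in place of 5.604 TPM, and that of Hoxa10 5.11 TPM in place of 11.2 TPM. Over all 39 genes of the Hox clusters, 7 were detected in at least 1 cell and 32 in none. After Hoxa9 (45 cells) and Hoxa7 (39 cells) came Hoxb4 in 15 cells, 10 of them Ly6C+GMP, at no more than 7.30 TPM.

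Hlf, the stem cell bZIP gene, was detected in a smaller share of cells in both GMP labels than in CMP or proneu cells. It was detected in 12 of 47 CMP cells (25.5%, 13.9 to 40.3%), 4 of 45 Ly6C-GMP cells (8.89%, 2.48 to 21.2%), 8 Ly6C+GMP cells (7.62%, 3.35 to 14.5%), 7 of 22 proneu cells (31.8%, 13.9 to 54.9%), 2 of 31 preNeu cells (6.45%, 0.791 to 21.4%) and 0 of 31 tpMo cells (upper limit 11.2%). The proneu interval overlaps that of every label except tpMo, and that of Ly6C+GMP narrowly. Its 7 proneu values were 84.9, 77.5, 71.3, 40.3, 27.2, 24.2 and 3.95 TPM. The 4 Ly6C-GMP values were 152, 47.2, 23.8 and 11.1 TPM, and the 2 preNeu values were 184 and 79.9 TPM.

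Proneu cells averaged 14.97 ± 27.9 TPM of Hlf and Ly6C+GMP cells 2.84 ± 12.7 TPM, a log2 difference of 1.28 between labels that share a listed gate. Within run C the difference was 1.16, with 7 of 21 proneu and 2 of 10 Ly6C+GMP cells, at means of 15.7 and 2.27 TPM. The proneu mean was 11.6 TPM without its highest cell. With a pseudocount of 10 TPM in place of 1 TPM the difference was 0.57, below 1 log2 unit. The highest proneu value, 84.9 TPM, lay below the highest Ly6C+GMP value of 96.9 TPM and the highest Ly6C-GMP value of 152 TPM. All 7 proneu cells with Hlf had Cebpe, a regulator of granulocyte maturation that was detected in 19 of 22 proneu cells. None had Meis1, Hoxa9 or Hoxa7, but each of these was in only 1 of 22 proneu cells, too few to read anything from that. Against CMP cells, where Hlf averaged 22.9 ± 59.1 TPM, proneu cells were lower in mean TPM and 0.26 higher in mean log2(TPM + 1). Dbp and Tef, the other PAR bZIP genes, and Nfil3, which encodes a repressor binding the same sites, did not pass 1 log2 unit there: Dbp and Nfil3 differed between proneu and Ly6C+GMP cells by 0.16 and -0.79, and Tef was under the 1 TPM needed to be counted.

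**Figure D4:**
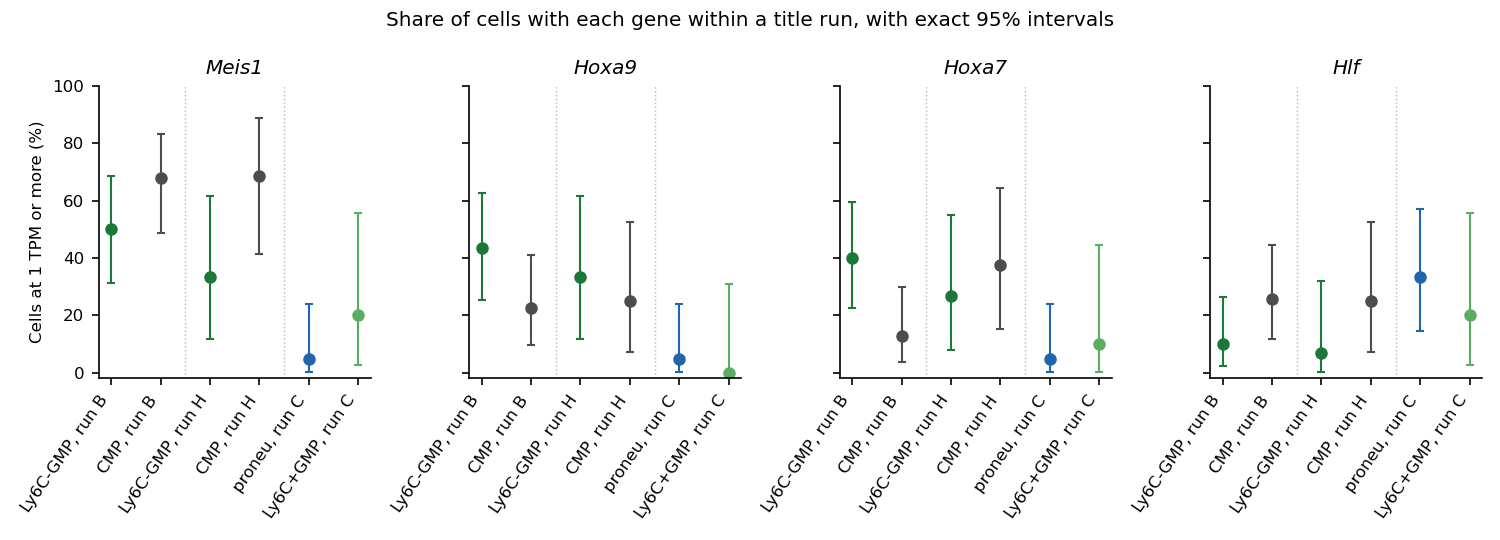
Share of cells (percent, y axis) with 4 of the genes at 1 TPM or more inside title runs, for Ly6C-GMP and CMP in runs B and H and for proneu and Ly6C+GMP in run C, with exact 95% intervals. The Hoxa7 shares of Ly6C-GMP and CMP stand in opposite order in run B (40 and 12.9%) and run H (26.7 and 37.5%), while Meis1 is lower in Ly6C-GMP in both.

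A gene was counted as lower or higher from 1 log2 unit of the mean over cells, provided that 1 of the labels compared averaged 1 TPM or above. In Ly6C-GMP against CMP cells, 1 of the 6 genes, Meis1, was lower and 0 were higher, where 1.29% of all 12582 measured genes were lower and 15.6% higher. Hlf differed by -0.90, Hoxa10 by -0.30 and Hoxa5 by -0.22. With a pseudocount of 0.1 TPM Hoxa7 (1.44) and Hoxa9 (1.36) were higher by more than 1 log2 unit, as they were within run B alone. In Ly6C+GMP against Ly6C-GMP cells, 3 of the 4 measured genes were lower, Hoxa9, Hoxa7 and Meis1, and 0 were higher, where 1.35% of 12399 genes were lower and 9.87% higher. Hlf differed by -0.13 there. With a pseudocount of 10 TPM none of the 3 passed 1 log2 unit, at -0.95 for Hoxa9, -0.82 for Hoxa7 and -0.57 for Meis1. In proneu against Ly6C+GMP cells, Hlf was higher, as were 2.2% of 12026 genes, and 0 of 4 were lower (background 15.9%), with Hoxa9 at -0.59, Meis1 at -0.43 and Hoxa7 at -0.39. These 3 were already low in Ly6C+GMP cells, which limits how far they can differ on this scale. In preNeu against proneu cells 1 of the 2 measured genes, Hlf, was lower by 1.15, and 0 were higher, where 39.8% of 10991 genes were lower and 3.58% higher. In tpMo against Ly6C+GMP cells 0 of 4 were lower, with differences from -0.35 to -0.66, and 0 were higher, where 32.9% of 12057 genes were lower and 3.19% higher. Set against CMP, 2 of 6 were lower in Ly6C+GMP (1.74% of all measured genes lower, 24.7% higher), 3 in proneu (6.06% and 16.2%), 3 in preNeu (31.3% and 5.54%) and 4 in tpMo cells (16.3% and 9.59%), and 0 of 6 were higher in each. Those 4 comparisons share the same CMP cells. CMP cells are in runs B and H and the other cells, but for 1 proneu cell, in runs A and C. The borders of A, B and C were set by label, so any batch cannot be told apart from the label there. Meis1 had the largest difference of the 6 in each, from -3.95 in Ly6C+GMP to -4.70 in preNeu cells. The call for Hlf between Ly6C+GMP and CMP cells, at -1.02, was -0.93 without the highest cell of each label.

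Other genes of the pathways were counted in the same way, beside 1.29% of all measured genes lower and 15.6% higher in Ly6C-GMP against CMP cells, and 1.35% lower and 9.87% higher in Ly6C+GMP against Ly6C-GMP cells. Of the 6 measured TALE genes other than Meis1, 0 were lower or higher between Ly6C-GMP and CMP cells, with Pknox1, a TALE gene related to Meis1, at 0.81 (30.7 ± 68.2 against 14.6 ± 39.9 TPM). Of 7 measured between Ly6C+GMP and Ly6C-GMP cells 0 passed 1 log2 unit, and Pknox1 differed by 0.41. Of 13 trithorax and MLL complex genes, among them Kmt2a for the MLL protein that keeps Hox genes on, 0 were lower in either comparison. Mllt10 was higher by 1.10 in Ly6C-GMP against CMP cells, and Ash2l (1.45) and Wdr5 (1.06) were higher in Ly6C+GMP against Ly6C-GMP cells. Of the Polycomb genes, which encode repressors of Hox clusters, 0 were lower and 1 of 13 was higher in Ly6C-GMP cells (Jarid2, 1.92), and 0 were lower and 1 of 12 was higher in Ly6C+GMP cells (Suz12). Their medians were 0.14 and 0.08, against 0.19 and 0.12 over all measured genes. The 2 of 13 trithorax genes higher in Ly6C+GMP cells are a larger share than the 9.87% of all genes, and the other shares counted as higher are below those of all genes. Counts of 1 or 2 genes a list single out neither list.

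The wider list of stem and multipotent progenitor genes shared the direction of Meis1 in part. Between Ly6C-GMP and CMP cells 8 of 29 were lower and 0 higher, beside 1.29% and 15.6% of all genes, with a median of -0.28 against 0.19 for all genes. Lmo2, a bridging protein of stem cell transcription complexes, had means of 116 ± 151 TPM for Ly6C-GMP and 396 ± 484 TPM for CMP, and Gata2, a stem and mast cell factor, 49.2 ± 122 and 197 ± 341 TPM. Between Ly6C+GMP and Ly6C-GMP cells 4 of 24 were lower and 2 higher, beside 1.35% and 9.87% of all genes, with a median of -0.35 against 0.12. Gata2 (-1.88) and Ikzf2 (-1.72) were lower there beside the Hox genes. Ly6a, which encodes Sca-1, was higher by 1.94, as was Lyl1 by 1.51.

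Markers of some other lineages also differed between these labels, some lower and some higher. Between Ly6C-GMP and CMP cells 0 of 7 measured monocyte and 0 of 3 measured lymphoid markers passed 1 log2 unit. Erythroid and megakaryocyte markers (11 genes) summed to a median of 1.14 TPM per Ly6C-GMP cell (range 0 to 4015) and 531 TPM per CMP cell (range 0 to 10103), and 6 of 8 measured were lower in Ly6C-GMP cells (1.29% of all genes). The globin genes Hba-a1 and Hbb-bs were at 0 in every cell of both labels. Mast cell and basophil markers (8 genes) summed to a median of 0 TPM per Ly6C+GMP cell (0 to 592), 78.8 TPM per Ly6C-GMP cell (0 to 6938) and 1.64 TPM per CMP cell (0 to 2386). Of 4 measured, 2 were higher in Ly6C-GMP than CMP cells (15.6% of all genes). Between Ly6C+GMP and Ly6C-GMP cells 2 of 4 measured were lower (1.35% of all genes), and Fcer1a, Cma1 and Tpsb2 were at 0 in all 3 labels. Neutrophil markers were higher for 9 of 14 genes in Ly6C-GMP against CMP cells, and again for 9 of 14 in Ly6C+GMP against Ly6C-GMP cells, where 6 of 9 measured monocyte markers were higher too (15.6% and 9.87% of all genes). Their summed medians were 71261 TPM per Ly6C+GMP, 56776 TPM per Ly6C-GMP and 4506 TPM per CMP cell for neutrophil markers, and 1455 TPM per Ly6C+GMP and 153 TPM per Ly6C-GMP cell for monocyte markers. The part of any of these lineages in the differences of Meis1, Hoxa9 and Hoxa7 was not tested.

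Within labels the 6 genes were found together to unequal degrees. In CMP cells Hlf came with Meis1 in 11 of 12 cells and Hoxa9 came with Meis1 in 9 of 11, where Meis1 was detected in 32 of 47 cells. In Ly6C-GMP cells 7 cells had both Hoxa9 and Meis1, of 18 with Hoxa9 and 20 with Meis1. There 10 of 16 cells with Hoxa7 had Meis1 and 7 had Hoxa9. In Ly6C+GMP cells 5 of 12 cells with Hoxa7 had Hoxa9, which was detected in 14.3% of that label, and 5 had Meis1. In CMP cells the neighbours Hoxa7 and Hoxa9 shared 3 cells of 10 and 11.

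Lineage genes chosen after their values were seen gave further contrasts. None of the 10 CMP cells with Hoxa7 had Gata1 or Mfsd2b, erythroid and megakaryocyte genes detected in 12 and 15 of the 47 CMP cells. This did not extend to Ly6C-GMP cells, where 4 of the 16 cells with Hoxa7 had Gata1, detected in 5 of 45. Of the 32 CMP cells with Meis1, 29 had Car2 (35 of 47 overall), 23 had Angpt1 (28 of 47) and 13 had Irf8, a monocyte and dendritic cell factor (26 of 47). Gata1 and Mfsd2b did not share the contrast of Car2. They were in 8 and 12 of these 32 cells (25% and 37.5%), near their 25.5% and 31.9% of all CMP cells. In Ly6C+GMP cells the picture for Meis1 differed: 16 of its 17 cells had Irf8 (82.9% of all Ly6C+GMP cells) and 14 had Csf1r, the receptor gene of the monocyte growth factor (56.2%), whereas 3 had Car2 (27.6%). Of the 8 Ly6C+GMP cells with Hlf, 1 had Csf1r, but 6 (75%) had Irf8, near its 82.9% of all Ly6C+GMP cells. These counts are small, and the cells of a label share its gate and runs.

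Genes most like each of the 6 were taken by Pearson correlation over the 6 label means of log2(TPM + 1), among 7478 candidates. The points are labels that differ in the number of genes detected per cell, and the values serve only to rank genes. For Meis1 they were Car2 (0.995), Klf1, Slc22a3, Rgs1 and Gnb4. For Hoxa9 they were Hoxa7 (0.996), Cpa3 (0.996), Ttyh2, Ncs1 and Ms4a2, and for Hoxa7 they were Cpa3 (0.997), Ms4a2, Hoxa9, Zfp119a and Armcx2. Cpa3, a mast cell protease gene, was detected in 57.8% of Ly6C-GMP, 25.7% of Ly6C+GMP and 40.4% of CMP cells, and 13 of the 18 Ly6C-GMP cells with Hoxa9 had it, against 26 of all 45, while 8 of the 16 with Hoxa7 did. For Hlf the values were lower, led by Baz2b (0.982) and Marcks (0.974), and Marcks was detected in 36.4% of proneu, 21.9% of Ly6C+GMP and 23.4% of CMP cells. For Hoxa10 and Hoxa5, each found in few cells, they were led by F2r (0.999) and Cdc42bpa (0.995).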

How the data were processed

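RNA of single sorted cells was converted to cDNA by SMART-seq2, and the authors deposited 1 table of TPM values per gene symbol and cell. RSEM 1.2.19 and the GRCm38 build are listed, per the submitters' processing notes. Which aligner, annotation or filter was used is not given in the sources used here, and the kit does not mark strand. TPM is relative within a cell and holds no read depth, and no molecular identifiers were used. Columns were matched to samples by title, and grouped by label, with no cell left out and no doublet calling.

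From the table were computed, with Python 3.11.15, numpy 2.4.6, pandas 2.3.3 and scipy 1.17.1, the share of cells at 1 TPM or more with exact Clopper-Pearson 95% intervals, mean TPM with its SD, and differences of mean log2(TPM + 1), called from 1 log2 unit where the higher label averaged 1 TPM or above. The arithmetic was checked on shuffled Ly6C+GMP values with known fold changes put in. That check left out genes of low mean, the 6 genes among them, and does not measure error for them. The genes, lists and comparisons were chosen with earlier results of these data known. Named list genes were up to 5 per list with the largest absolute difference in the first 2 comparisons and at least 5 TPM in the higher label; Dbp and Nfil3 in proneu cells and the lineage genes in co-detection were chosen after values were seen. Genes most like a member needed 10 TPM and 20% detection in 1 label. Alternatives were pseudocounts of 10 and 0.1 TPM, median-ratio scaling (547 genes), log2 ratios of means, renormalising without 52 abundant genes, no filter, single title runs and other detection limits. Positions and exons came from GENCODE M21 and promoters from RefSeq, where all 6 genes matched. A gene of 1 list is not reported here.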

Additional observations from a re-analysis of the deposited data

How the results depend on the processing

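The number of the 6 genes lower by 1 log2 unit depended on how zeros were weighed. Ly6C-GMP against CMP gave 1 as reported, 2 with a pseudocount of 0.1 TPM, 4 as the log2 ratio of mean TPM and 2 in title run H, while Hoxa7 and Hoxa9 passed 1 log2 unit upward with 0.1 TPM (1.44 and 1.36) and in run B (1.73 and 1.17). Ly6C+GMP against Ly6C-GMP gave 3, and 0 with a pseudocount of 10 TPM. Proneu against Ly6C+GMP gave 0, and 1 with a pseudocount of 0.1 TPM and 2 by the ratio, and Hlf, higher as reported, was at 0.57 with 10 TPM. PreNeu against proneu gave 1, and 0 with a pseudocount of 10 TPM. By the ratio the gene lower there was not Hlf (means of 8.53 against 14.97 TPM) but Meis1 (0.0303 against 5.96 TPM). TpMo against Ly6C+GMP gave 0, and 1 with 0.1 TPM and 3 by the ratio. Against CMP, Ly6C+GMP gave 2 as reported, 1 with 10 TPM, 4 with 0.1 TPM, 6 by the ratio and 1 after median-ratio scaling. Proneu gave 3, and 1 with 10 TPM and 5 by the ratio. PreNeu gave 3, and 1 with 10 TPM and 6 by the ratio. TpMo gave 4, and 1 with 10 TPM and 6 by the ratio. The cause was not tested. No called difference of a single gene turned its direction in any setting run, and leaving out abundant genes or the filter on low values kept each count within 1.5 times. Median-ratio scaling moved the median of all genes most in preNeu cells, to -0.53 against proneu, where it was -0.68 as reported, and to -0.33 against CMP, where it was -0.46. The share of Ly6C-GMP cells with any of the 6 genes was 60% in run H, and that of Ly6C+GMP cells 45.7% above 0 TPM and 25.7% at 10 TPM or more. The single proneu cell of run B was too few for values of its own. After the data were seen, means were also taken without a gene's highest cell: 7 of 18 moved by over 1.5 times, among them Hlf in Ly6C-GMP (1.88 TPM) and preNeu cells (2.70 TPM) and Meis1 in proneu (0.0295 TPM) and tpMo cells (0.0653 TPM). No paired analysis was possible because replicate numbers are only the order of cells and no test was made. Read depth is unknown, so a gene listed at 0 may have been missed.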
